A study of Mus musculus with 18 samples.

Results

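The 46 genes described here mark sinusoidal and capillary endothelium of the liver or carry angiogenic and angiocrine signals. They were chosen by name, and all 46 were found among the 28442 genes of the expression table. Within the list, 6 genes of sinusoidal endothelium (Stab2, Lyve1, Clec4g, Oit3, Gpr182 and Dnase1l3) were set against 4 genes of capillary endothelium (Plvap, Cd34, Emcn and Vwf). Bulk RNA-seq was available for 6 livers of mice without tumors and 12 advanced liver tumors, 18 samples from 17 mice, since tumors 11 and 12 came from 1 mouse. All mice were untreated male Alb-R26Met animals of an F1 C57:129Sv background. Both groups thus carry the same alleles: a chimeric mouse-human Met transgene in the Rosa26 locus, conditional on Cre, and Alb-Cre, which is driven by the albumin promoter and therefore acts in hepatocytes and not in the endothelium. The age of the mice was 52 to 71 weeks (median 56.5) for livers and 49 to 72 weeks (median 65) for tumors. The names of 2 livers and 7 tumors carry the tag E19, and those of 4 livers and 5 tumors the tag E20, whose meaning the sources used here do not give.

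Liver sinusoids are lined by a fenestrated endothelium without an organized basement membrane. Its cells clear macromolecules from the blood through scavenger receptors and lectins such as Stab1, Stab2, Clec4g and Lyve1, and they release the ligands Wnt2, Wnt9b, Rspo3, Bmp2 and Bmp6, which act on neighboring hepatocytes. Capillary endothelium elsewhere expresses Cd34, Emcn and Plvap, and in chronic liver disease and in hepatocellular carcinoma sinusoids are known to acquire such features, a change called capillarization. Angiogenesis proceeds through VEGF and its receptors, through the angiopoietins and through apelin, and endothelial tip cells of growing vessels express Esm1, Apln and Angpt2.

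The values are TPM, the share of a transcript among all transcripts, a unit that takes transcript length into account, rounded to whole numbers by the authors. They are given below after division by a scaling factor per sample (scaled TPM). TPM keep no read depth, and the totals of 835144 to 884597 per liver and 845356 to 907513 per tumor are not depths. A single gene, Siglece, held 17.9% to 29.5% of the total in livers, 82.9% in tumor 2 and 21.5% to 53.4% in the other tumors, highest of these in tumor 11. A larger share for 1 gene lowers the TPM of all others before scaling, and how far the scaling offsets this was not tested. After scaling, 1 deposited unit equals 5.15 scaled TPM in tumor 2, against 0.701 to 1.27 in the other samples, so low genes appear there either at 0 or at 5.15 and above. Liver 1 stood apart among the livers, with a summed level of the 6 sinusoidal genes of 24.5 scaled TPM against 64.2 to 97.4 in the others. Hepatocyte markers were abundant in every sample, with a summed level of 37030 to 49080 in livers and 34890 to 68840 in tumors. The 6 markers in this sum did not move alike. By the limma test described below, Apoa1 rose in tumors, Ass1 and Cyp2e1 fell, and 3 were not called. Among these 3, Cps1 was below every liver in all 12 tumors.

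In tumors, 7 of 16 junction, surface and shared endothelial genes rose, as did the tip cell genes Esm1 and Apln and the receptors Flt1 and Tie1, whereas 0 of 8 sinusoidal scavenger and lectin genes passed the test. Of the 46 genes, 40 passed the filter on low values (at least 1 scaled TPM in at least 6 samples), and 11 of these 40 rose and 2 fell in tumors at an adjusted p under 0.05 (limma with Benjamini-Hochberg adjustment over all 11708 genes tested). Over all genes tested, 9.81% rose and 9.22% fell. The genes that rose were Esm1, Emcn, Cd34, Apln, Pecam1, Flt1, Cdh5, Mmrn2, Robo4, Esam and Tie1, and those that fell were Rspo3 and Bmp6. The median log2 fold change of the 40 genes was 0.19, compared with -0.06 over all genes tested. Without tumor 2, 12 rose and 4 fell, against 14.2% and 12.1% of all genes, and without tumors 2, 10 and 11, a choice made after seeing the data, 13 rose and 3 fell, against 12.6% and 10.2%. Without scaling between samples, 5 rose and 3 fell, against 5.03% and 5.04% of all genes, and the calls of Cdh5, Flt1, Mmrn2, Robo4, Esam and Tie1 were lost. Within the E19 samples 5 of 33 genes tested rose and 0 fell, against 7.74% and 5.48% of all genes. Within the E20 samples 4 of 28 rose and 0 fell, against 2.87% and 1.05%. The filter of 6 samples was kept within each tag. Rspo3 was therefore tested within neither tag, and Esm1, Emcn and Cd34 not within the E20 samples. A limma test of whether the difference between tumors and livers itself differed between the tags called 0 of 11708 genes. In this test 5 of the 40 genes here had an unadjusted p under 0.05, against 2.96% of all genes. They were Sox18, Stab1, Mmrn2, Lyve1 and Tie1.

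**Figure D1:**
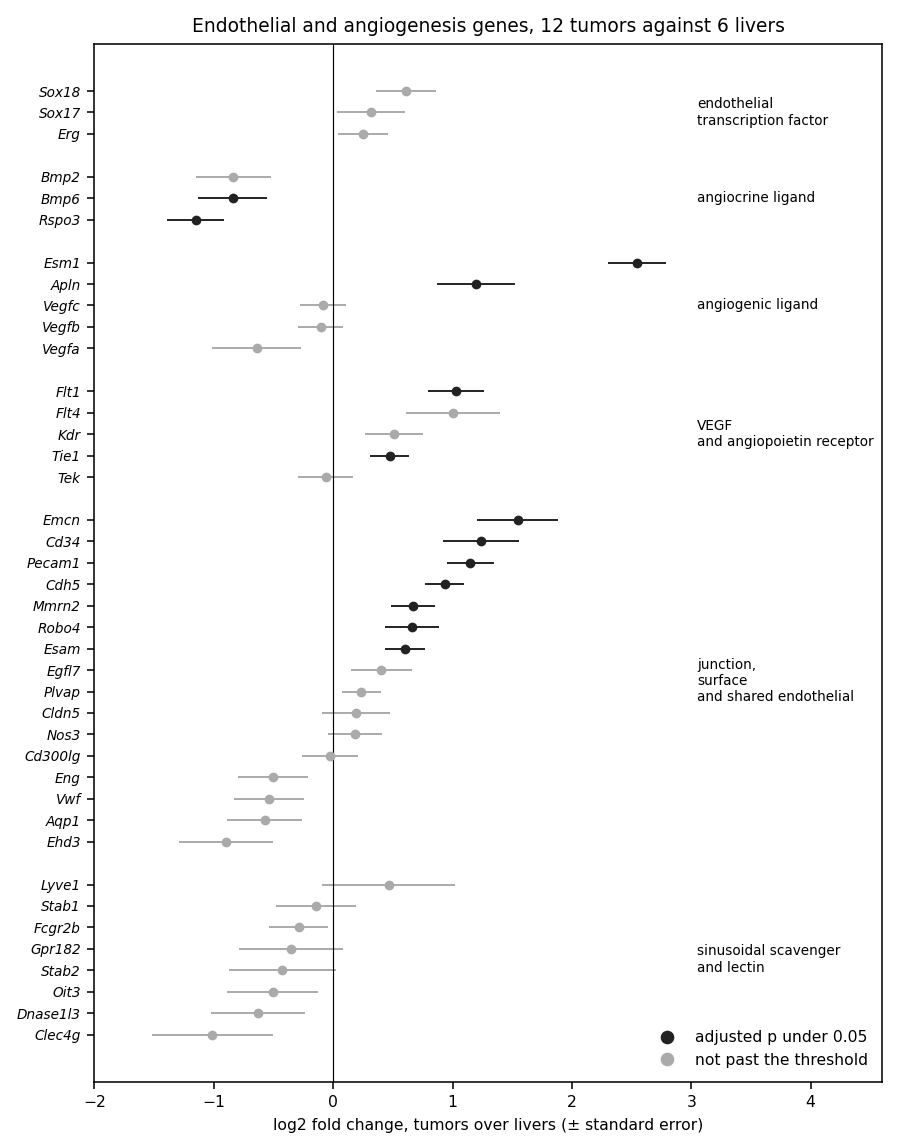
Log2 fold change of the 40 genes tested, tumors (n = 12) over livers (n = 6), as points with their standard errors and grouped by role. Black points passed the test, gray points did not: 7 of 16 junction, surface and shared endothelial genes lie to the right of 0 in black, and all 8 sinusoidal scavenger and lectin genes are gray.

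The sinusoidal genes were expressed at clear levels in livers and varied widely among tumors. Stab2, a scavenger receptor for hyaluronan, was 4.33 to 13.2 scaled TPM in livers (median 10.2) and 0.876 to 30.9 in tumors (median 8.03). Clec4g, a C-type lectin of the sinusoidal wall, was 8.66 to 30.2 in livers (median 18.1) and 0 to 18.5 in tumors (median 11.7). Dnase1l3, a secreted DNase, was 4.33 to 30.2 in livers (median 20.7) and 2.54 to 20.6 in tumors (median 13.1). All 3 genes overlapped between the groups, and tumors 10 and 11 held the lowest values of each: 0.876 and 1.27 for Stab2, 0 and 1.27 for Clec4g, and 4.38 and 2.54 for Dnase1l3. Only the Dnase1l3 value of tumor 10 was not below every liver, since liver 1 was at 4.33. The log2 fold changes were -0.43 ± 0.45 (SE) for Stab2, -1.01 ± 0.51 for Clec4g and -0.63 ± 0.39 for Dnase1l3, with limma adjusted p-values of 0.576, 0.181 and 0.296.

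The promoter windows of Stab2 and Clec4g are shown because both genes had their lowest values in tumors 10 and 11. They run from 250 bases before to 50 bases after a promoter start of the gene on GRCm38.p6, 5′ to 3′ on the strand of the gene. They lie at chr10:87007893-87008192 (minus strand) for Stab2 and chr8:3720602-3720901 (minus strand) for Clec4g. The RefSeq genes extend to 87008038 and 3720695, so the starts used lie inside both genes and not at their 5′ ends. Capitals mark each AGGAAG, read on either strand (as CTTCCT on the printed strand), the core that ETS factors such as Erg bind, with overlapping occurrences marked as 1 run.
Stab2: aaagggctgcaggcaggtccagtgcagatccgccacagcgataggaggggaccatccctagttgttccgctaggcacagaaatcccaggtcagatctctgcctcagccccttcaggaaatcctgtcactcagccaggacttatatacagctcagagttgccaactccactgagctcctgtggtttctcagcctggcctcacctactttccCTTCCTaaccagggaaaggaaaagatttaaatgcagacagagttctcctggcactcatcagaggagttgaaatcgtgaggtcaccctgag
Clec4g: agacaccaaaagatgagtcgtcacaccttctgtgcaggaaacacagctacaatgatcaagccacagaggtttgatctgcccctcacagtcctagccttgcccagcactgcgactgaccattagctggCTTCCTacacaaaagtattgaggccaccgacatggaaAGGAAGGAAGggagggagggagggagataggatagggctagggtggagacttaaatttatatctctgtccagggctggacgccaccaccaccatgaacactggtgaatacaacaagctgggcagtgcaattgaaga
The window of Stab2 holds 1 occurrence and that of Clec4g holds 3.

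Lyve1, a hyaluronan receptor shared with lymphatic endothelium, was 2.16 to 18.2 scaled TPM in livers (median 7.07) and 2.63 to 15.1 in tumors other than tumor 2, in which it reached 144. This gave a log2 fold change of 0.47 ± 0.56 (adjusted p = 0.631). The 4 lymphatic markers summed to 26.9 to 70.7 in livers and 28.9 to 74.5 in tumors, nearly all of it Prox1, a gene also expressed by hepatocytes, which was the only 1 tested (log2 fold change -0.11, adjusted p = 0.824). Of the others, Pdpn and Mmrn1 were at 0 in every sample, and Ccl21a was at 0 in 4 of 6 livers and in all 12 tumors. Oit3, a protein with a zona pellucida domain, was 1.44 to 5.60 in livers (median 4.72) and 0 to 5.71 in tumors (median 3.55), with 0 in tumors 2 and 10. Gpr182, an atypical chemokine receptor, was 3.61 to 10.3 in livers (median 8.27) and 0 to 12.1 in tumors (median 8.36), with 0 in tumor 2. Both genes overlapped between the groups, with adjusted p-values of 0.402 for Oit3 and 0.642 for Gpr182. The scavenger receptor Stab1 was 7.21 to 16.2 in livers and 4.38 to 41.2 in tumors, and the Fc receptor Fcgr2b was 6.49 to 20.2 in livers and 3.81 to 16.1 in tumors, with adjusted p-values of 0.819 and 0.465. Thus 0 of 8 scavenger and lectin genes passed the limma test, and none had every tumor above or every tumor below every liver. With sample weights in the fit, Dnase1l3 was called lower.

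The 4 capillary genes did not move alike. Cd34, a sialomucin of capillary endothelium and progenitor cells, was 0 to 1.12 scaled TPM in livers (median 0.944) and 0 to 7.62 in tumors (median 3.34). Emcn, endomucin, a further sialomucin of capillaries and veins, was 0 to 1.12 in livers (median 0.87) and 0 to 7.72 in tumors (median 4.13). For both genes 11 of 12 tumors were above every liver, and tumor 2, in which 1 deposited unit is 5.15 scaled TPM, was at 0. Since livers held 0 or 1 deposited unit of each gene, their level in liver is known only coarsely. Both rose, Cd34 by a log2 fold change of 1.24 ± 0.32 (adjusted p = 0.00852) and Emcn by 1.54 ± 0.34 (adjusted p = 0.00276), on the scale of log2(scaled TPM + 1), which understates the change of such low genes. Within the E19 samples the log2 fold changes were 1.30 for Cd34 and 1.41 for Emcn. Neither gene was tested within the E20 samples, since the filter asks for 6 samples and this tag has only 5 tumors. The call of Cd34 was lost with a pseudocount of 0.1 (adjusted p = 0.0659), and among livers and tumors 1 to 6 with the replicate block (adjusted p = 0.108) and without it (0.0981). In bulk tissue more cells of a type and more RNA per cell cannot be told apart.

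Plvap, the diaphragm protein of endothelial fenestrae, was 17.9 to 27.3 scaled TPM in livers (median 18.6) and 15.4 to 34.9 in tumors (median 23.8). The log2 fold change was 0.24 ± 0.16 (adjusted p = 0.352). Plvap was thus the highest of the 4 capillary genes in livers already. Vwf, von Willebrand factor, was 0.94 to 3.04 in livers (median 2.03) and 0 to 2.74 in tumors (median 1.03), with 3 tumors at 0 and a log2 fold change of -0.54 ± 0.29 (adjusted p = 0.225). Of the 4 capillary genes, 2 rose, 0 fell and 2 did not pass the test.

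The promoter windows of the 2 capillary genes that rose are given in the same way, at chr1:194938571-194938870 (plus strand) for Cd34 and chr3:137340828-137341127 (plus strand) for Emcn. The RefSeq gene of Emcn begins at 137341062, shortly before the start used here.
Cd34: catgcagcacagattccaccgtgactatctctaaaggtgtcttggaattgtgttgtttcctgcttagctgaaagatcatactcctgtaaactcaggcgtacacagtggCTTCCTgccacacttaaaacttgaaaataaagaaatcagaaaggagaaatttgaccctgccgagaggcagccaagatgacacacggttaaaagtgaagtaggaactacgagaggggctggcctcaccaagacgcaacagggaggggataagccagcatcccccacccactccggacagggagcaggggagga
Emcn: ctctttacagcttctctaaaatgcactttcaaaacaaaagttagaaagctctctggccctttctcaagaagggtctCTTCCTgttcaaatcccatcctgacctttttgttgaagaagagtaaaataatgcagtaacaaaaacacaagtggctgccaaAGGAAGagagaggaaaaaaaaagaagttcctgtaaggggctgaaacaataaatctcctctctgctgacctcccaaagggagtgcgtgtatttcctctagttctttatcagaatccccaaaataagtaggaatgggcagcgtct
Cd34 has 1 AGGAAG and Emcn has 2, read on either strand. RefSeq held 33 promoter windows for 27 of the 46 genes. AGGAAG was found in 15 of these 33 windows (45.5%) and in 35.4% of all 32851 windows of the same length. ACAAAG, the core that SOX factors such as Sox17 and Sox18 bind, was found in 4 of 33 (12.1%) and in 18.7% of all windows, and ACGTG, the core of hypoxia response elements, in 3 of 33 (9.09%) and in 19.6%, both strands being searched. None of the 4 windows printed so far holds either of these 2 motifs. A match describes the letters of the window and no binding.

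**Figure D2:**
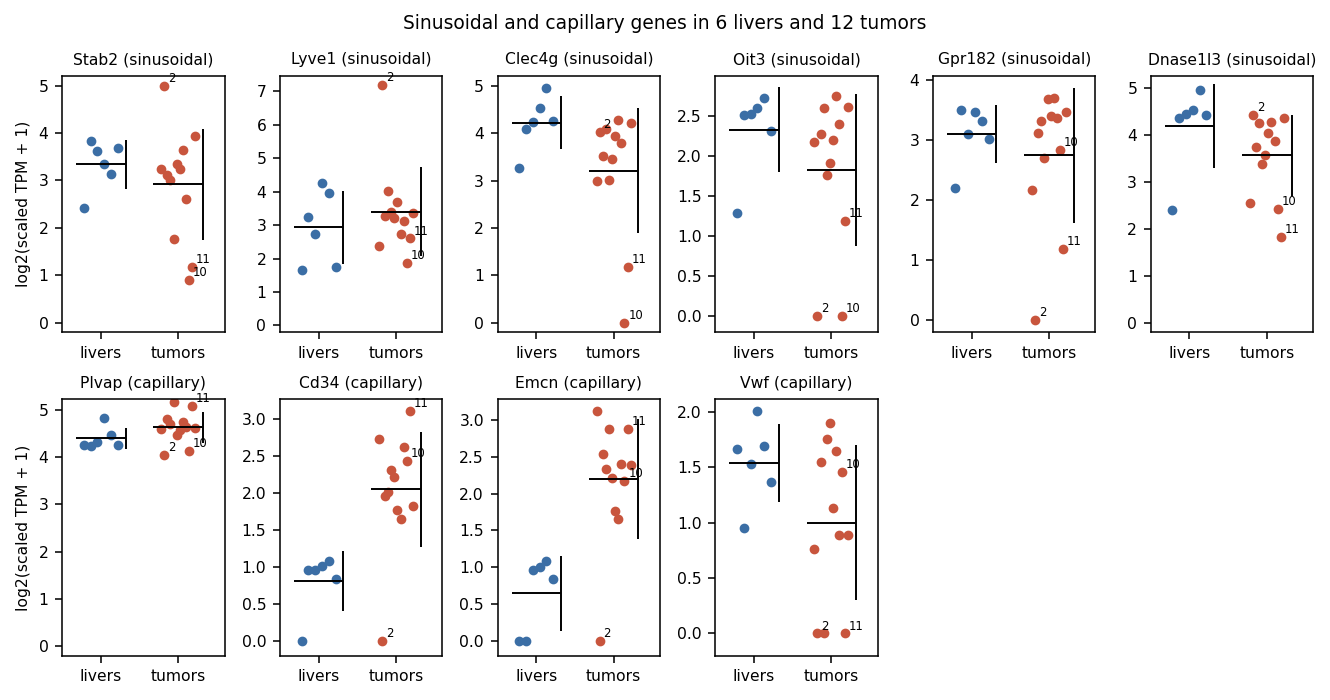
Level of the 6 sinusoidal and the 4 capillary genes as log2(scaled TPM + 1), by sample, in livers (blue) and tumors (red), with the mean as a horizontal line, the SD as a vertical line, and tumors 2, 10 and 11 numbered. Cd34 and Emcn lie above every liver in 11 of 12 tumors, and tumors 10 and 11 lie at the lower end of Stab2, Clec4g and Dnase1l3.

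To describe both programs in each sample, the mean log2 level of the 6 sinusoidal genes was subtracted from that of the 4 capillary genes. This index was -1.51 ± 0.44 (SD, n = 6) in livers, from -2.05 to -0.73, and -0.48 ± 1.08 (SD, n = 12) in tumors, from -2.43 in tumor 2 to 1.24 in tumor 11. In 7 tumors it was above every liver, and in tumor 2 it was below every liver. Liver 1 was the highest liver, and without it 11 tumors were above the other 5 livers, which reached at most -1.42. The capillary mean was above every liver in 11 tumors (1.85 ± 0.29 in livers and 2.47 ± 0.51 in tumors). The sinusoidal mean was below every liver in 2 tumors, at 1.34 in tumor 10 and 1.53 in tumor 11 (3.36 ± 0.60 in livers and 2.95 ± 0.78 in tumors). Here too liver 1 set the limit, at 2.21, and 7 tumors lay below the other 5 livers, the lowest of which was at 3.25. No test is given for the index. The difference in means was 1.03, or 1.58 within the E19 samples, 0.41 within the E20 samples and 0.87 without tumors 2, 10 and 11.

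**Figure D3:**
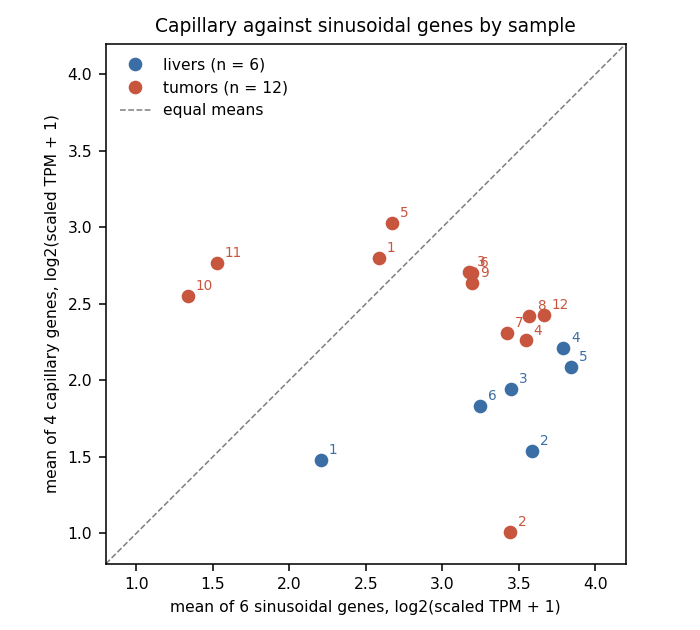
Mean log2(scaled TPM + 1) of the 4 capillary genes against that of the 6 sinusoidal genes, with 1 numbered point per liver (blue, n = 6) or tumor (red, n = 12) and a dashed line of equal means. Tumors 10 and 11 stand to the left at sinusoidal means of 1.34 and 1.53, and tumor 2 stands below all samples at a capillary mean of 1.01.

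Tumors differed in how many sinusoidal genes they held below the range of livers. Of the 8 scavenger and lectin genes, tumor 11 had 7 below every liver, tumor 10 had 4, tumor 5 had 3, and tumors 1 and 2 had 2 each. The other 7 tumors had 0 below every liver. Liver 1 was the lowest liver for each of the 8 genes. Without it, tumors 5, 10 and 11 had 7 genes each below the other 5 livers, tumors 1, 3 and 9 had 5 each, tumor 6 had 4, tumors 2 and 7 had 3 each, tumor 4 had 2, and tumors 8 and 12 had 1 each. Dnase1l3 was then below the livers in 11 tumors, Clec4g in 9 and Lyve1 in 0. Markers of other cell types differed between tumors 10 and 11. Summed Kupffer cell markers were lowest in tumor 11, at 10.2 scaled TPM against 45.1 to 130 in livers, but were 47.3 in tumor 10. Summed stellate cell markers were 64.8 in tumor 11 and 156 in tumor 10, against 96.0 to 186 in livers. Summed fibroblast markers were 39.4 in tumor 11 and highest in tumor 10, at 114, against 6.63 to 16.2 in livers. Across all tumors, summed Kupffer cell markers were below every liver in 8 of 12 and summed stellate cell markers in 9 of 12. Of 7 Kupffer cell and macrophage markers tested, Clec4f and Marco fell and 5 were not called. Of 8 stellate cell markers tested, 6 fell and 2 were not called. The summed fibroblast markers were above every liver in 10 of 12 tumors. Of 5 fibroblast markers tested, the collagens Col1a1, Col1a2 and Col3a1 rose, Pdgfra fell and Lum was not called. Pericyte and smooth muscle markers, of cells that sheathe vessels, summed to 11.4 to 18.2 in livers. Their sum was above every liver in 10 tumors, highest in tumor 10 at 43.8. Of the 5 of these markers tested, Kcnj8 alone was called, as higher. Their part in the levels of the endothelial genes was not tested.

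Tumors 11 and 12, taken from 1 mouse, lay at opposite ends of this range. Stab2 was 1.27 scaled TPM in tumor 11 and 14.4 in tumor 12. Clec4g was 1.27 and 17.8, Dnase1l3 2.54 and 19.5, Gpr182 1.27 and 10.2, and Oit3 1.27 and 5.08, respectively. Tumor 12 had the highest sinusoidal mean of all tumors, 3.66, and tumor 11 the lowest but one. Of the 6 sinusoidal genes, 5 were at least 2-fold lower in tumor 11 than in tumor 12 on the log2(scaled TPM + 1) scale, and so were 13 of the 40 genes tested (32.5%) and 8.18% of all genes. Of the 4 capillary genes 0 were at least 2-fold lower in tumor 11, and Cd34 was higher there, at 7.62 against 2.54. Each tumor is 1 sample, so these differences have no replicate check. Tumor 11 carries the tag E19 and tumor 12 the tag E20, and Siglece held 53.4% and 24.4% of their totals, so differences between the tumors and between these cannot be told apart.

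**Figure D4:**
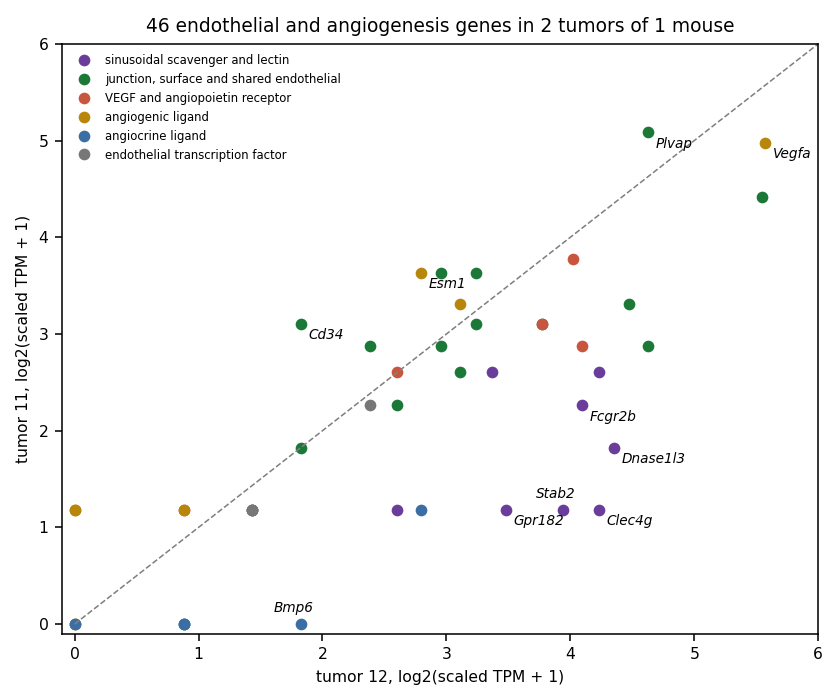
Level of the 46 genes as log2(scaled TPM + 1) in tumor 11 (vertical axis) against tumor 12 (horizontal axis) of the same mouse, colored by role, with a dashed line of equal levels. The sinusoidal genes (purple) fall below the line, Stab2, Clec4g, Gpr182 and Dnase1l3 farthest, and Cd34 lies above it.

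Of 16 junction, surface and shared endothelial genes, 7 rose and 0 fell, Cd34 and Emcn among the 7. Pecam1, an adhesion molecule of all endothelium, platelets and leukocytes, was 1.44 to 4.48 scaled TPM in livers (median 2.94) and 5.15 to 13.3 in tumors (median 6.92). Every tumor was above every liver, as for 2.17% of all genes tested, and the log2 fold change was 1.15 ± 0.19 (adjusted p = 0.000268). The lowest tumor, tumor 2, held 1 deposited unit, against 2 to 4 in livers, and its 5.15 is that unit after scaling. Rounding thus leaves uncertain whether tumor 2 exceeds the highest liver. The 5 platelet markers summed to 1.90 to 3.61 in livers and 0 to 3.50 in tumors, with 7 tumors below every liver. Of these, Gp1bb and Gp9 were at 0 in every sample, and Pf4, the only 1 tested, was not called (log2 fold change 0.33, adjusted p = 0.434). Their part in the rise of Pecam1 was not tested. Of 3 leukocyte markers tested, 0 were called. Cdh5, VE-cadherin of adherens junctions, was 2.16 to 5.60 in livers (median 3.88) and 5.15 to 11.4 in tumors (median 8.50), with 11 tumors above every liver and a log2 fold change of 0.93 ± 0.16 (adjusted p = 0.000386). Pecam1 and Cdh5 were also called within each tag. Their log2 fold changes were 0.97 and 0.69 in E19 samples and 1.20 and 1.01 in E20 samples.

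Mmrn2, Esam and Robo4 rose by less. Mmrn2, multimerin 2, a matrix protein that binds Cd93, was 0.721 to 4.05 scaled TPM in livers (median 2.83) and 2.63 to 5.75 in tumors (median 4.85), with 10 tumors above every liver. Its log2 fold change was 0.67 ± 0.19 (adjusted p = 0.0141). Esam, an adhesion molecule of tight junctions, was 1.44 to 5.60 in livers (median 3.92) and 3.96 to 7.01 in tumors (median 6.01), at a log2 fold change of 0.60 ± 0.17 (adjusted p = 0.0158). Robo4, a guidance receptor that stabilizes vessels, was 1.44 to 6.58 in livers (median 3.26) and 2.63 to 10.3 in tumors (median 6.01), at a log2 fold change of 0.66 ± 0.23 (adjusted p = 0.0479). The call of Robo4 depended on the samples: it remained without liver 2, liver 4, tumor 2, tumor 6 or tumor 10, and was lost when any 1 of the other 13 samples was left out, at adjusted p-values of up to 0.122. Within the E19 and the E20 samples none of these genes was called, with log2 fold changes of 0.23 and 0.97 for Mmrn2, 0.29 and 0.81 for Esam, and 0.31 and 1.04 for Robo4.

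The other 7 junction and surface genes, beside Plvap and Vwf, did not pass the test. Egfl7, a secreted angiogenic factor, had a log2 fold change of 0.40, the tight junction gene Cldn5 0.19, the nitric oxide synthase Nos3 0.18 and the receptor-like Cd300lg -0.02. Nos3 held 1 deposited unit in every sample except tumor 12, which held 2, so its value rests mainly on the scaling factors. Without tumors 2, 10 and 11 the log2 fold change of Nos3 was 0.04. The TGF-beta co-receptor Eng was 23.8 to 44.5 scaled TPM in livers and 7.01 to 45.7 in tumors, with 6 tumors below every liver and a log2 fold change of -0.50 ± 0.29 (adjusted p = 0.255). The water channel Aqp1 had -0.57 ± 0.31 (adjusted p = 0.221). Ehd3, a membrane trafficking protein, was 11.5 to 42.5 in livers and 2.63 to 33.2 in tumors, at -0.90 ± 0.39 (adjusted p = 0.118), and at -1.12 without liver 1 (adjusted p = 0.0446).

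The 3 VEGF receptors lay above every liver in 9 to 11 of 12 tumors, and 1 of them passed the test. Flt1, the decoy and signaling receptor for Vegfa, Vegfb and Pgf, was 2.84 to 5.64 scaled TPM in livers (median 4.62) and 5.13 to 17.5 in tumors (median 9.95). In 11 tumors it was above every liver, and the log2 fold change was 1.03 ± 0.24 (adjusted p = 0.00397). Within the E20 samples Flt1 was called at 1.38, and within the E19 samples it was not, at 0.75. Kdr, the main signaling receptor for Vegfa, was 2.89 to 8.09 in livers (median 6.92) and 2.63 to 13.4 in tumors (median 9.95), above every liver in 10 tumors and lowest in tumor 10. The log2 fold change of Kdr was 0.51 ± 0.24 (adjusted p = 0.156), and without tumor 10 it was 0.64 (adjusted p = 0.0135). Flt4, the receptor for Vegfc, was 2.16 to 6.07 in livers (median 4.61) and 1.75 to 42.2 in tumors (median 10.5), lowest in tumor 10 and highest in tumor 4. Its log2 fold change was 1.01 ± 0.40 (adjusted p = 0.0814), and without tumor 10 it was 1.18 (adjusted p = 0.0169). Flt4 was also called with tumor 10 kept, at 0.96 with sample weights (adjusted p = 0.026). Flt1, by contrast, was highest in tumor 10, at 17.5.

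Of the angiopoietin receptors, Tie1, a co-receptor without a ligand of its own, was 1.44 to 4.48 scaled TPM in livers (median 3.46) and 3.50 to 5.15 in tumors (median 4.79). It rose by a log2 fold change of 0.47 ± 0.16 (adjusted p = 0.0472). The call remained without liver 4, liver 5, tumor 2, tumor 6, tumor 8 or tumor 10, and was lost without any 1 of the other 12 samples, at adjusted p-values of up to 0.145. Tek, the receptor itself, was at most 1.58 in livers and 2.01 in tumors, at a log2 fold change of -0.06 (adjusted p = 0.891). The apelin receptor Aplnr did not pass the filter. It was at 0 in all 6 livers and above 0 in 7 of 12 tumors, at up to 2.10.

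Tip cell genes were at or near 0 in livers. Esm1, endocan, a proteoglycan secreted by tip cells, was at 0 in 4 of 6 livers and at most 1.01 scaled TPM in the others, against 3.50 to 11.9 in tumors (median 6.53). Every tumor was above every liver, and the log2 fold change was 2.54 ± 0.24 (adjusted p = 2.38e-07). Tumor 2 held 1 deposited unit of Esm1, as did livers 2 and 4, so rounding leaves its place above these livers uncertain. The log2 fold change was 2.37 within the E19 samples. Within the E20 samples Esm1 was not tested, since the filter asks for 6 samples and this tag has only 5 tumors. In those 5 tumors Esm1 was 3.57 to 11.9 scaled TPM, and in the 4 livers with this tag at most 0.94. Apln, apelin, was at 0 in 5 of 6 livers and 0.94 in liver 2, against 0 to 5.26 in tumors (median 1.23), with 8 tumors above every liver. Of these, tumors 2, 4, 7 and 11 held 1 deposited unit, as did liver 2, so rounding leaves their order uncertain. Apln rose by a log2 fold change of 1.20 ± 0.33 (adjusted p = 0.0125). Angpt2, the ligand by which tip cells loosen vessels, did not pass the filter, and was at 0 in all 6 livers and above 0 in 8 of 12 tumors, at up to 1.40. No sample held more than 2 deposited units of Angpt2.

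The promoter window of Esm1 is shown as that of the gene with the largest log2 fold change of the 40, at chr13:113209409-113209708 (plus strand).
Esm1: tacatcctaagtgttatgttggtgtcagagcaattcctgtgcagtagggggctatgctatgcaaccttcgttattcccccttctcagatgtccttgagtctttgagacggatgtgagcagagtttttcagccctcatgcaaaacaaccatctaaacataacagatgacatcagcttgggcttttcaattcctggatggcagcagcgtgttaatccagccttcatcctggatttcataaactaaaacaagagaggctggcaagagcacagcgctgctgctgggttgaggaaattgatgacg
It holds none of the 3 motifs searched.

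None of the VEGF ligands tested passed the test. Vegfa, the main angiogenic factor, was 26.9 to 101 scaled TPM in livers (median 61.2) and 15.8 to 149 in tumors (median 32.8), highest in tumor 2 and otherwise at most 58.5. Its log2 fold change was -0.64 ± 0.37 (adjusted p = 0.258), and without tumor 2 it was -0.83 (adjusted p = 0.0495). Vegfb, which binds Flt1, was 4.33 to 13.3 in livers and 5.15 to 13.1 in tumors, at a log2 fold change of -0.11 (adjusted p = 0.759). Vegfc, the lymphangiogenic ligand, had -0.09 (adjusted p = 0.815). Pgf and Angpt1, the ligands of Flt1 and Tek, did not pass the filter, were at 0 in all livers, and were above 0 in 1 and 3 tumors. Of the 3 endothelial transcription factors, Sox18 had a log2 fold change of 0.61 ± 0.25 (adjusted p = 0.096), Sox17 0.32 (adjusted p = 0.493) and Erg 0.25 (adjusted p = 0.462). Without liver 5, Sox18 was at 0.84 (adjusted p = 0.0159).

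Of the 3 ligands tested that sinusoidal endothelium provides to hepatocytes, 2 fell in tumors and 0 rose, against 9.22% and 9.81% of all genes. Rspo3, which amplifies Wnt signaling at the central vein, was 0.948 to 2.89 scaled TPM in livers (median 1.73). It was at 0 in 9 of 12 tumors and at most 1.43 in the others, and fell by 1.15 on the log2 scale (SE 0.24, adjusted p = 0.00181). Bmp6, which instructs hepatocytes to make hepcidin, was 2.38 to 5.06 in livers (median 3.56) and 0 to 5.15 in tumors (median 1.81), with 8 tumors below every liver. Its log2 fold change was -0.84 ± 0.29 (adjusted p = 0.0436). This call remained without liver 1, tumor 2, tumor 4, tumor 7, tumor 8 or tumor 12, and was lost without any 1 of the other 12 samples, at adjusted p-values of up to 0.111. In deposited units Rspo3 was 1 to 4 in livers and 0 to 2 in tumors, and Bmp6 3 to 5 and 0 to 3. Rounding thus limits both genes. Bmp2, the second hepcidin ligand of the endothelium, was 5.05 to 11.1 in livers (median 9.44) and 0.876 to 10.3 in tumors (median 4.85), lowest in tumors 10 and 11. At -0.84 ± 0.31 (adjusted p = 0.0678) it did not pass the threshold, but did so without liver 1 (-0.95, adjusted p = 0.0419), tumor 2 (-0.95, adjusted p = 0.0249) or tumor 7 (-0.91, adjusted p = 0.0494). The Wnt ligands were too low for the test. Wnt2 was above 0 in 6 of 6 livers and 5 of 12 tumors, and Wnt9b in 4 of 6 livers and 2 of 12 tumors, and neither exceeded 1.20. Stellate cells also make Rspo3, and their summed markers were below every liver in 9 tumors, whose part in this result was not tested.

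Hepatocyte genes known to respond to these ligands were examined as well. Of 9 known targets of BMP signaling, 7 fell and 0 rose, against 9.22% and 9.81% of all genes tested. Their median log2 fold change was -1.74. Hamp, hepcidin, was 4076 scaled TPM on average in livers and 412 in tumors, below every liver in 12 of 12 tumors, as were 0.948% of all genes tested (log2 fold change -4.62 ± 0.96, adjusted p = 0.00186). Smad9 and Id3 were also below every liver in all 12 tumors, at log2 fold changes of -2.53 and -2.13. The BMP inhibitors Smad6 and Smad7, which the pathway induces as feedback, were among the 7. Of 13 targets of Wnt and R-spondin, 11 were tested, 6 fell and 0 rose, with a median of -1.54. Oat, Cyp2e1 and Cyp1a2, enzymes of hepatocytes near the central vein, had log2 fold changes of -2.86, -2.82 and -2.36. Among tumors, the highest value of each of these 13 genes was in tumor 10, in which Rspo3 was at 0. There Axin2, a negative regulator induced by Wnt signaling, was 30.7 against at most 2.85 in the other tumors and 11.5 in livers, and Glul, glutamine synthetase, was 5382 against at most 254 and 423. Tumor 10 was thus the tumor with the lowest sinusoidal mean and the highest values of these target genes. Without tumors 2, 10 and 11, 7 BMP targets and 7 Wnt targets fell, as did 10.2% of all genes. Whether the level of the ligands and that of their targets are connected was not tested.

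Genes of vascular basement membrane were examined next. Of 13 tested, 9 rose and 1 fell, against 9.81% and 9.22% of all genes, and the median log2 fold change was 0.89. Nid1, nidogen, was 1.90 to 25.2 scaled TPM in livers (median 3.10) and 47.5 to 129 in tumors (median 79.7), a log2 fold change of 3.91 ± 0.33 (adjusted p = 4.74e-08). Sparc, a collagen-binding matrix protein, had 2.51 ± 0.34 (adjusted p = 1.97e-05), and Col4a2, a chain of collagen IV, had 2.09 ± 0.21 (adjusted p = 4.56e-07). In all 3 genes every tumor was above every liver. Col18a1, whose fragment endostatin inhibits angiogenesis, fell by 0.64 on the log2 scale (adjusted p = 0.0233). These genes are made by fibroblasts and hepatocytes too. Summed fibroblast markers were above every liver in 10 of 12 tumors, but the markers in this sum did not move alike. The log2 fold change was 2.15 for Col1a1 and -0.86 for Pdgfra (adjusted p = 0.0135). The part of fibroblasts in this result was not tested.

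Of 23 other vascular endothelial genes tested, 7 rose and 1 fell, against 9.81% and 9.22% of all genes. Their median log2 fold change was 0.44. Ly6c1, a surface protein of capillaries and arteries, had a log2 fold change of 2.68 ± 0.46 (adjusted p = 0.000323), Cav2, of caveolae, 1.62 ± 0.33 (adjusted p = 0.00149), and Cd93, the partner of Mmrn2, 1.48 ± 0.18 (adjusted p = 4.59e-06). Ly6c1 and Cav2 were above every liver in 11 of 12 tumors, tumor 2 being at 0, and Cd93 in 12. The lowest tumor value of Cd93 was 5.15, that of 1 deposited unit in tumor 2, so this separation is coarse. Nr2f2, a factor of venous identity, fell by 0.56 (adjusted p = 0.0268). Without tumor 2, 11 of 26 genes of this list tested rose and 2 fell, against 14.2% and 12.1% of all genes. Of 13 other sinusoidal genes tested, 4 fell and 2 rose, with a median of -0.48. Cyp26b1, which degrades retinoic acid and is also expressed by stellate cells, had -1.90 ± 0.34 (adjusted p = 0.000519), and Fcna, a ficolin shared with Kupffer cells, -1.55 ± 0.31 (adjusted p = 0.0012). Gata4, the factor that specifies sinusoidal endothelium and is present in stellate cells, fell by 1.12 on the log2 scale (adjusted p = 0.00121). Cldn7, a claudin of epithelia, was at 0 in all livers and above 0 in 9 tumors, and was called higher (adjusted p = 0.0206). Without tumor 2, 7 of 15 other sinusoidal genes tested fell and 2 rose.

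In the Notch pathway, which restrains tip cells, 3 of 9 genes tested rose and 0 fell, against 9.81% and 9.22% of all genes. They were the ligand Dll4 at a log2 fold change of 0.82 ± 0.20, the receptor Notch4 at 0.67 ± 0.19 and the target Nrarp at 0.77 ± 0.22, with adjusted p-values of 0.00638, 0.0167 and 0.0159. Of 14 co-factors of VEGF and of vessel guidance, 6 rose and 1 fell. Unc5b, a netrin and Robo4 receptor of tip cells, was above every liver in all 12 tumors, at 2.0 ± 0.24 (adjusted p = 6.2e-06), as was Cxcr4, a chemokine receptor of tip cells and leukocytes, at 1.26 ± 0.25 (adjusted p = 0.00138). Livers reached 1.12 scaled TPM of Cxcr4, and 1 deposited unit in tumor 2 is 5.15, so the separation of Cxcr4 is coarse. Cxcl12, the ligand of Cxcr4, fell by 1.23 (SE 0.25, adjusted p = 0.00154). Of 14 hypoxia response genes tested, 1 rose and 1 fell, near these shares, and the median log2 fold change was -0.0022. Ndrg1, a stress response gene, had 1.47 ± 0.45 (adjusted p = 0.0243), and Pdk1, which limits entry into the citric acid cycle, fell by 0.85 (adjusted p = 0.0085).

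**Figure D5:**
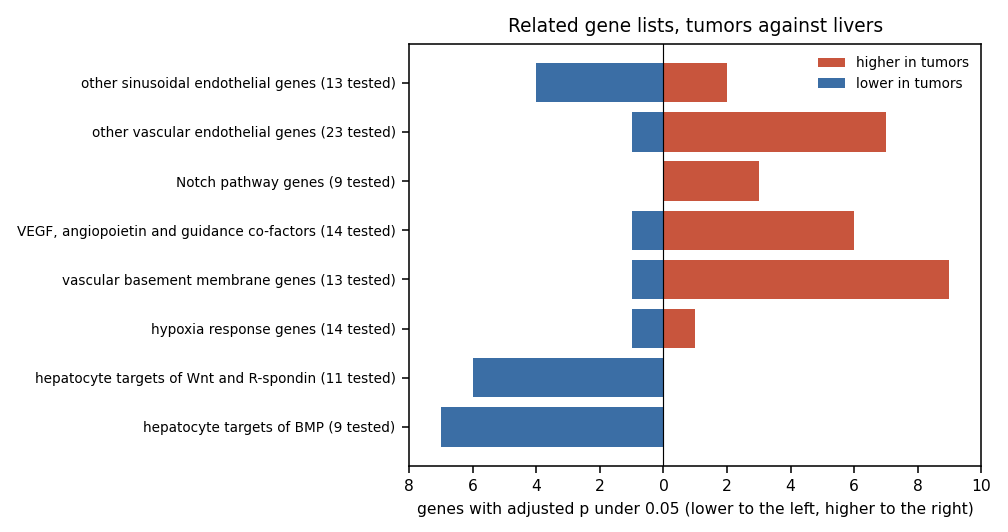
Number of genes per list with an adjusted p under 0.05, as bars to the right for genes higher in tumors (red) and to the left for genes lower in tumors (blue), with the number tested in parentheses. Basement membrane genes have the longest bar to the right (9 of 13), and targets of BMP and of Wnt and R-spondin have bars to the left only (7 of 9 and 6 of 11).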

How the data were processed

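Poly-A RNA of 6 livers and 12 tumors was sequenced paired end by the authors, aligned to GRCm38 and quantified with Salmon. The deposited values, which the study calls raw counts, are a score in whole numbers, taken as rounded TPM because 882 of 900 values that the study lists as TPM equal them after rounding. Groups, numbers and tags came from the sample labels, and for 2 tumors the mouse number differs between sources. In the table, 8 lines carried an extra separator.

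Values were divided by a trimmed mean of M values per sample (30% of M and 5% of A values trimmed, unweighted). A gene was tested when 6 or more samples reached a scaled value of 1. The fit on log2(scaled value + 1) used limma 3.58.1 (R 4.3.3) with a trended prior and Benjamini-Hochberg adjusted p-values over all genes tested (threshold 0.05). This took the place of a count test, and was tested on simulated data. Without read depth, no counting intervals are given, and p-values measure the spread between these samples. Tumors 11 and 12 were treated as separate samples. Tables and plots used Python 3.11.15, pandas 2.3.3 and matplotlib 3.10.9.

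The 46 genes and all lists were chosen with earlier results of these data known. Full values are given for the 10 sinusoidal and capillary genes and for those past the threshold or without overlap, others as ranges or folds. Of each other list the 3 called genes with the largest folds are named. Stab1, Fcgr2b, Col18a1, Nr2f2, Gata4, Smad6, Smad7, Axin2, Glul, Col1a1, Col1a2, Col3a1, Pdgfra, Lum and Kcnj8 were added after their values were seen. So were Apoa1, Ass1, Cps1, Clec4f and Marco. RefSeq on GRCm38.p6 gave the promoter windows. Alternatives covered scaling, filter, pseudocount, tag, age, sample weights, a replicate block, the average of tumors 11 and 12, and each sample left out. Those without tumors 2, 10 and 11, list counts without tumor 2, and ranges of livers without liver 1, were chosen after seeing the data.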

Additional observations from a re-analysis of the deposited data

Results flagged for a closer look

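In 4 of the 42 genes checked, 1 liver lay far from the other 5, at a gap over the range of the 6 livers above the critical value of 0.625. For independent genes with normal values, chance would give about 2.1 such genes, 1 in 20 of those checked. Livers at 0 or 1 deposited unit do not meet this, so the 4 genes cannot be weighed against that number. Kdr was 2.89 scaled TPM in liver 1 and at least 6.58 in the others (gap over range 0.709). Cd34 was at 0 in liver 1 and at least 0.792 in the others (0.708), a difference of 1 deposited unit. Plvap reached 27.3 in liver 4, where the other livers held 21.3 or less (0.638). Apln was 0.94 in liver 2, likewise 1 deposited unit, and at 0 in the others (1.0).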

How the results depend on the processing

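No call reversed its direction. The values carry no depth, and whole-number rounding limits every gene near 1 TPM, most of all in tumor 2. Esm1, Emcn, Pecam1, Apln and Rspo3 were called in every alternative that tested them, whereas Tie1, Robo4 and Bmp6 lost their calls in most. The cause was not tested in any case.

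The count of 2229 genes called over all genes was 1341 without scaling, which lowered the median log2 fold change of all genes by a shift of -0.14, and 4704 with sample weights, 1344 within E19 samples and 404 within E20 samples. It was 1669 to 3213 with 1 sample left out. The 11 genes of the list that rose became 5 without scaling (Esm1, Emcn, Pecam1, Cd34 and Apln), 5 within E19 and 4 within E20 samples, and 9 to 13 with 1 sample left out. The 2 that fell became 1 with median of ratios scaling, without a filter and with the tag as covariate. They also became 1 with a pseudocount of 0.5 or 0.1, and 6 with sample weights. Within either tag they became 0, and with 1 sample left out 0 to 4. Of the 2, Rspo3 did not pass the filter and was not tested within either tag, nor without liver 1, liver 6 or tumor 8. The index difference stayed between 0.88 and 1.21 with 1 sample left out.

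Without scaling, other sinusoidal genes that rose became 1, other vascular genes that fell 0, Notch genes that rose 1, basement membrane genes that rose 5 and fell 0, and hypoxia genes that fell 0. With a pseudocount of 0.1, 4 other vascular genes rose. Without tumor 2, Notch genes that fell became 1 (also without tumors 2, 10 and 11), hypoxia genes that rose 2, other vascular genes that rose 11 and fell 2, and other sinusoidal genes that fell 7. The tag interaction called 9 genes without a filter, 0 of them in the list of 46.

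Livers and tumors share the numbers 1 to 6, but they came from different mice, so these numbers do not pair the samples. Deviations from the group means correlated by 0.18 on average over the 6 same-numbered pairs (-0.10 to 0.42). Over the 30 other pairs they correlated by -0.04 (-0.45 to 0.38). Except for number 3, same-numbered samples also carry the same tag, whose part in this was not tested. With the replicate block the 12 samples numbered 1 to 6 gave 1361 calls over all genes, and 1211 without it. In both fits 8 genes of the list were higher and 0 lower, and Rspo3 was not tested.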
